A study of Mus musculus with 2 samples.

Results

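The SLAM family is a group of cell-surface receptors of the immunoglobulin superfamily, and the 9 genes examined here were Slamf1, Slamf6, Slamf7, Slamf8, Slamf9, Cd244a, Cd84, Cd48 and Ly9. They were chosen by symbol from the 32285 genes of the per-mouse matrices, and all 9 were measured. Their levels were compared between control mice and mice that lacked Arpc4 in Cx3cr1-expressing cells, in microglia, in lymphocytes and in the other CD45+ cells of the brain.

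SLAM family receptors are found on blood cells and macrophages, and most of them bind a copy of themselves on a neighbouring cell. The exception in ligand use is CD244, whose ligand is CD48, a receptor held in the membrane by a lipid anchor. Most members carry a tyrosine-based switch motif in their tail that recruits the adaptors SAP (Sh2d1a) and EAT-2 (Sh2d1b1 and Sh2d1b2), with the kinase FYN downstream, whereas SLAMF8, SLAMF9 and CD48 do not carry this motif. In macrophages SLAMF7 and SLAMF1 have been linked to phagocytosis and phagosome function.

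The 9 genes lie on chromosome 1, where they span 1031376 bases in build GRCm38. From one end to the other the order is Cd244a, Ly9, Slamf7, Cd48, Slamf1, Cd84, Slamf6, Slamf9 and Slamf8, with 6 genes on the plus strand and 3 (Ly9, Slamf7 and Slamf8) on the minus strand. The gene model of Ly9 (chr1:171588624-171607410) lies inside that of Cd244a (chr1:171559193-171609746) on the opposite strand. The sources used here do not state whether counting used the strand, so how reads from the stretch that these 2 genes share were assigned was not checked. The 2 genes had separate counts, given below.

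The 250 bases before the RefSeq start (GRCm38.p6) are shown for 4 members: Slamf7 and Cd244a, which had the largest fold differences described below, Cd84, which shares a short motif with both, and Slamf1, the member with a difference in the opposite direction. Capitals mark TGANTCA, the palindromic site known for AP-1 factors, which reads the same on both strands.
Slamf7, chr1:171649000-171649249, minus strand: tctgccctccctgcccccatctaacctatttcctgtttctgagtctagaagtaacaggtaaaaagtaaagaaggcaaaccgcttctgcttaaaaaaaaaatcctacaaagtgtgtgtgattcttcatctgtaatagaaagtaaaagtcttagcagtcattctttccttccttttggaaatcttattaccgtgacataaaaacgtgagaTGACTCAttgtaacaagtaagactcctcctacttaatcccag
Cd244a, chr1:171558943-171559192, plus strand: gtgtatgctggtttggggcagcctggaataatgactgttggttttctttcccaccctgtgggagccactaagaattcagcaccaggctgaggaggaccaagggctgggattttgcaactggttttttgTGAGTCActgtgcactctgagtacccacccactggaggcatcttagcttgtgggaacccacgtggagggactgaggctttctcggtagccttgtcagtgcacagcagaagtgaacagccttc
Cd84, chr1:171839447-171839696, plus strand: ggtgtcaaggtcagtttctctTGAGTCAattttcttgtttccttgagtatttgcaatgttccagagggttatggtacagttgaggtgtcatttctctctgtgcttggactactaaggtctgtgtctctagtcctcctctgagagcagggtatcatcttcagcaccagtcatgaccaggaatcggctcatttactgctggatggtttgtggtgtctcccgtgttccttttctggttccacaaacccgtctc
Slamf1, chr1:171766882-171767131, plus strand: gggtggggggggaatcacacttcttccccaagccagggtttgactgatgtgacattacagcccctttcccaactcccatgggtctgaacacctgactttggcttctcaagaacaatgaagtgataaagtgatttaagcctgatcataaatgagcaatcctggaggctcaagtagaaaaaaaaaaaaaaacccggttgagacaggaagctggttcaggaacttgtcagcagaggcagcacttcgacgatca
The RefSeq start used for Slamf7 lies within the GENCODE model of the gene (chr1:171632403-171653035) rather than at its end. Promoters of 8 of the 9 members were matched, all except Ly9. TGANTCA was found in those of Cd244a, Slamf7 and Cd84, and in 6.75% of all 32817 promoters of the same length. The 2 other motifs searched on both strands were GAGGAA, a core for ETS factors such as PU.1, found in the promoter of Slamf9 and in 23.3% of all promoters, and the interferon-stimulated response element (GAAA and GAAA with 2 bases between), found in that of Slamf8 and in 2.97% of all promoters. These matches describe the letters in these windows only.

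The data were single-cell RNA counts of sorted CD45+ brain cells from 8 adult littermate mice, each marked with a cell multiplexing oligonucleotide and pooled into 1 library. The 4 control mice were Arpc4fl/fl without Cre, and the 4 KO mice (Arpc4dCx3cr1) carried Tg(Cx3cr1-Cre) on the same floxed background. Arpc4 encodes a subunit of the Arp2/3 complex, which nucleates branched actin, and the Cx3cr1 promoter is active in microglia but also in other macrophages and in some monocytes and lymphocytes. The floxed allele was thus shared by all 8 mice and Cre differed between the groups.

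The files held 19863 cells past the filter and no barcode occurred in more than 1 mouse. Depth per mouse was 5251527 to 12878691 UMIs, a UMI being 1 counted RNA molecule. Microglia-like clusters, hereafter microglia, held 17040 cells, with 998 to 2382 cells and 4215392 to 11698188 UMIs per mouse. Their 14 microglia markers together reached 41484 to 42112 CPM (the UMIs of a gene scaled to the total of the same cells) in the control mice and 29246 to 31607 CPM in the KO mice. The 12 T cell markers together came to at most 4.49 CPM in the microglia of any mouse, and the 12 NK cell markers to at most 13.3 CPM. The 10 B cell markers summed to 479 to 518 CPM in controls and 85.4 to 191 CPM in KO mice, and among them Bank1 was one of the leading genes of a microglia cluster. Without the cells that held 2 or more UMIs of T, NK or B cell markers (52.5% of control and 16.5% of KO microglia) the calls and directions of the 9 SLAM genes in microglia were the same. KO mouse 1 stood apart, with Xist, a transcript of female cells, at 1383 CPM in microglia against 3.65 to 13.2 CPM in the other 7 mice. The study's methods mention that a female KO animal was included unintentionally and set aside, which the labels do not point out, so all KO mice were kept here and results that depend on KO mouse 1 are given without it as well.

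Arpc4 itself was lower in the microglia of every KO mouse, at 146, 145, 136 and 132 CPM in KO mice 1 to 4 against 242, 224, 232 and 232 CPM in control mice 1 to 4 (log2 fold change -0.63, SE 0.05, edgeR adjusted p = 5.87e-06). Counts at the 3′ end need not lie in the deleted part of the gene, so a remaining level does not measure remaining protein.

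All 9 SLAM family genes differed between KO and control microglia. Transcripts of Slamf7, Cd244a, Ly9, Slamf9, Slamf8, Cd48, Slamf6 and Cd84 were higher in KO mice and that of Slamf1 was lower, by edgeR's quasi-likelihood test at an adjusted p of 0.05 over 12730 genes. Among all genes tested 46% passed, 22.9% as higher and 23.2% as lower, against 8 of 9 and 1 of 9 for the family. The median log2 fold change was 1.45 over the 9 genes and -0.01 over all genes. For each of the 9 genes the CPM values of the 4 control and the 4 KO mice did not overlap, which held for 16.4% of all genes in the higher and 31.3% in the lower direction. The clusters that held most microglia differed between the genotypes, with 94.98% of control microglia in 4 clusters (numbers 0, 2, 5 and 7) and 98.2% of KO microglia in the other 8.

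**Figure D1:**
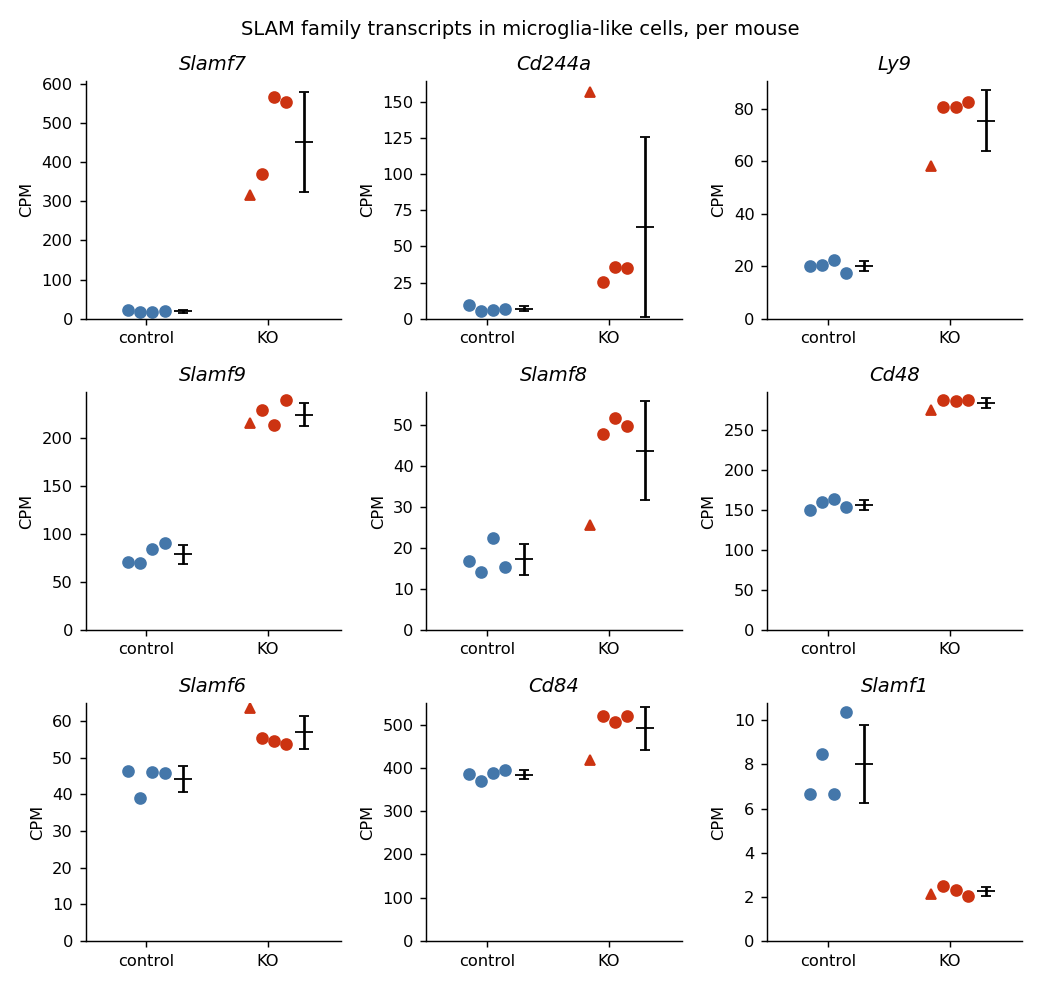
CPM of each SLAM family gene in microglia, 1 point per mouse (blue control, red KO, triangle KO mouse 1), with mean and SD (n = 4) beside the points and axes that start at 0. Slamf7 sits between 15.9 and 23.0 CPM in the control mice and between 317 and 567 CPM in the KO mice, and Slamf1 is the gene whose KO points lie below the control points.

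Slamf7, a self-binding receptor that signals through EAT-2 in innate cells, had the largest difference of the family. Control mice 1 to 4 had 23.0, 16.1, 15.9 and 19.96 CPM and KO mice 1 to 4 had 317, 371, 567 and 554 CPM. Every KO mouse was thus far above every control mouse, and KO mice 3 and 4 were above KO mice 1 and 2. The group means were 18.7 ± 3.40 and 452 ± 127 CPM (SD, n = 4 each), with a log2 fold change of 4.73 (SE 0.23, adjusted p = 1.62e-07), a 26.5-fold difference. Empty droplets of the pool, which hold free RNA, had Slamf7 at 184 CPM. With an assumed 10% of that profile (18.4 CPM) subtracted from each mouse the log2 fold change was 8.80. Control mice 2 and 3, at 16.1 and 15.9 CPM, were below that amount and were left with no Slamf7 counts. The size of this value thus rests on nearly empty controls. The control cells of clusters 0, 2, 5 and 7 were below that assumed share, at 6.05 CPM, and 405 of the 586 control UMIs came from the 392 control cells in the other 8 clusters.

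Cd244a, the receptor of CD48 known from NK cells, was higher in KO microglia, with a spread set by 1 mouse. Its levels were 9.73, 5.46, 5.97 and 6.55 CPM in control mice 1 to 4 and 157, 25.3, 35.8 and 35.4 CPM in KO mice 1 to 4. All KO mice were above all controls, and KO mouse 1 was above the other 3 KO mice by a wide margin. The log2 fold change was 3.37 (SE 0.63, adjusted p = 0.00121) with all mice and 2.41 (adjusted p = 8.73e-08) without KO mouse 1, and 4.15 with 10% of the empty-droplet profile subtracted.

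Cd48, the ligand of CD244, was higher in KO microglia with little spread between mice. Control mice had 150, 160, 164 and 154 CPM and KO mice had 275, 288, 287 and 288 CPM. The groups were far apart relative to their SDs of 6.16 and 6.11 CPM (n = 4 each), and the log2 fold change was 0.96 (SE 0.05, adjusted p = 2.47e-07). Receptor and ligand of this pair were thus both higher in the same cell class.

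Among the other self-binding receptors, Ly9 changed most. Ly9 had 19.9, 20.4, 22.2 and 17.5 CPM in control mice and 58.2, 80.7, 80.6 and 82.6 CPM in KO mice, where KO mouse 1 was the lowest (log2 fold change 2.02, SE 0.12, adjusted p = 5.82e-07). Cd84, which is also known from B cells and platelets, had 385, 371, 389 and 395 CPM in control mice against 419, 521, 507 and 521 CPM in KO mice. Its groups did not overlap, although KO mouse 1 came near the controls, and the log2 fold change was 0.46 (SE 0.07, adjusted p = 0.000379). Slamf6, known from T and B cells, had 46.3, 38.9, 46.0 and 45.8 CPM in control mice and 63.6, 55.5, 54.6 and 53.9 CPM in KO mice. Here KO mouse 1 was the highest and the difference was modest (log2 fold change 0.47, SE 0.08, adjusted p = 0.000623).

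Slamf8 and Slamf9 encode the members with short tails that are known from macrophages and other myeloid cells, and both were higher in KO microglia. Slamf9 had 70.9, 69.7, 84.3 and 90.1 CPM in control mice and 216, 229, 214 and 240 CPM in KO mice. The log2 fold change was 1.62 (SE 0.08, adjusted p = 2.47e-07), and KO mouse 1 lay among the other KO mice. Slamf8 had 16.8, 14.2, 22.6 and 15.3 CPM in control mice and 25.7, 47.9, 51.8 and 49.8 CPM in KO mice. KO mouse 1 lay just above the highest control for this gene (log2 fold change 1.45, SE 0.22, adjusted p = 0.000337; 1.64 without KO mouse 1).

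Slamf1 encodes a self-binding receptor that also senses bacteria, and it was the member with lower levels in KO microglia. It was rare in both groups, with 6.64, 8.45, 6.64 and 10.4 CPM in control mice and 2.14, 2.495, 2.32 and 2.05 CPM in KO mice. These levels rest on 268 UMIs in control and 99 UMIs in KO microglia in all. The KO mice were close to each other and below every control (log2 fold change -1.74, SE 0.18, adjusted p = 2.22e-05).

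**Figure D2:**
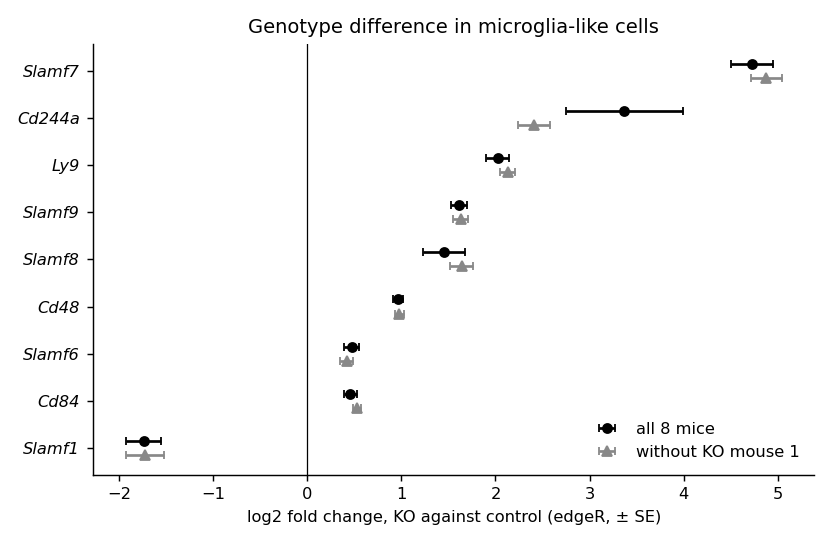
Log2 fold change of each SLAM family gene in microglia, KO against control (edgeR, bars ± SE), with all 8 mice (black) and without KO mouse 1 (grey triangles). Slamf7 lies at 4.73, Slamf1 at -1.74, and Cd244a moves from 3.37 to 2.41 when KO mouse 1 is left out.

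To compare cells at equal depth, each microglial cell was thinned at random to 1000 UMIs, which left out 4 cells in each genotype. The share of cells with a Slamf7 UMI was 1.10% ± 0.286 in control and 33.5% ± 7.34 in KO mice (SD, n = 4; two-sided exact permutation p = 0.0286, the smallest that 4 against 4 mice can give). Without thinning the shares were 3.80% and 68.9%. Granulocytes, given for comparison, were not free of the transcript, with Slamf7 at 9.47 CPM over control and 67.1 CPM over KO cells (237 and 274 CPM in KO mice 3 and 4). They had a Slamf7 UMI in 1 of 35 control cells (2.86%, exact interval 0.0723 to 14.9%) and in 3 of 45 KO cells (6.67%, 1.40 to 18.3%) at the same thinned depth, their median depth being 10538 UMIs against 4055 in microglia. Shares rose from 14.4% to 25.6% for Cd48, from 7.77% to 20.2% for Slamf9, from 1.76% to 7.1% for Ly9 and from 0.643% to 5.42% for Cd244a. They also rose from 4.01% to 5.36% for Slamf6 and fell from 0.944% to 0.197% for Slamf1, all 6 with an exact permutation p of 0.0286. Of all 12730 genes 33.4% passed 0.05 in this test, 12.4% as higher and 20.9% as lower in KO mice, against 6 of 9 and 1 of 9 for the family. For Cd84 the shares were 29.8% and 35.6% (exact permutation p = 0.0571) and for Slamf8 1.99% and 4.17% (p = 0.0857), neither past 0.05. With a mouse left out, the p became 0.0857 for Cd244a without any 1 control mouse, 0.0571 for Slamf1 without any 1 KO mouse and 0.0571 for Slamf6 without KO mouse 2, while Slamf8 and Cd84 reached 0.0286 without KO mouse 1 (exact permutation in each case). These p-values are not adjusted for the 9 genes. Over 10 alternatives, removal of each mouse among them, 75 of 90 results stayed on the same side of 0.05 in this test. For Slamf6 it was 8 of 10, and its rise was between 0.53 and 2.59 percentage points, beside 1.36 in the main setting.

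Genes that act downstream of the receptors were called in both directions, at a share near that of all genes. Of 18 genes of SLAM signalling 14 were abundant enough to be tested in microglia, and 4 were higher in KO mice, 4 lower and 6 did not pass (median log2 fold change 0.13), beside 22.9% higher and 23.2% lower among all genes. Sh2d1b1, the gene of the EAT-2 adaptor, was higher, with a mean of 6.06 CPM in control and 28.4 CPM in KO mice (log2 fold change 2.42, SE 0.19, adjusted p = 3.12e-06). Fyn, the kinase recruited by SAP, had means of 21.2 and 51.6 CPM (1.41, SE 0.15, adjusted p = 2.12e-05). Grb2 (0.22) and Becn1 (0.31), a docking adaptor and the beclin that binds SLAMF1 in phagosomes, were the other 2 that rose. Prkcq, a protein kinase C known from T cells, was lower with 12.9 against 4.74 CPM (-1.34, SE 0.18). Csk (-0.52), which restrains SRC family kinases, Nck1 (-0.21) and Inpp5d (-0.14), the gene of the phosphatase SHIP1, were lower as well. The genes below the filter were Sh2d1a, Sh2d1b2, Lck and Cd2, each with a mean under 1 CPM in both groups.

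The genes beside the SLAM cluster on chromosome 1 were called at a share near that of all genes (46%). The annotation holds 31 genes that start within 100 kb of a member, of which 15 were in the matrices and 9 were tested. Igsf9 (log2 fold change 2.10) and Gm37787 (4.59, at most 3.78 CPM in any mouse) were higher, while B930036N10Rik (-1.11), Alyref2 (-0.59) and Pigm (-0.49) were lower, and 4 did not pass. Their median log2 fold change was -0.13.

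The SLAM genes were unevenly spread over the microglia clusters of KO mice. The clusters were built without the 9 genes, and the values over pooled KO cells are given as a description. Slamf7 ranged from 311 to 569 CPM in 7 of the 8 clusters made up mostly of KO cells. In the eighth, cluster 11, led by Arhgap15, Negr1 and Ccr1, it was at 41.4 CPM, and 264 of the 353 KO cells came from KO mouse 2. There KO mice 2, 3 and 4 had 35.6, 50.4 and 57.9 CPM, the latter 2 from 16 and 69 cells, while KO mouse 1 had too few cells. The 51 control cells of cluster 11 had Slamf7 at 78.7 CPM when pooled. Cd244a was highest in cluster 4, at 180 CPM, where 96.2% of the KO cells came from KO mouse 1. This mouse was above the other KO mice in every cluster where it had at least 10 cells. In the 6 of these clusters other than cluster 4 it had 52.7 to 128 CPM, against 8.04 to 47.2 CPM in the other KO mice. Slamf8 was highest in the cluster of interferon-induced genes (cluster 9), at 69.98 CPM over the pooled KO cells. In KO mouse 1, however, it was at 30.9 CPM there and at 61.8 CPM in cluster 10. Ly9 differed less between clusters in the pooled cells, by 1.52 times, but within KO mouse 1 it went from 32.5 CPM in cluster 9 to 109 CPM in cluster 3.

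**Figure D3:**
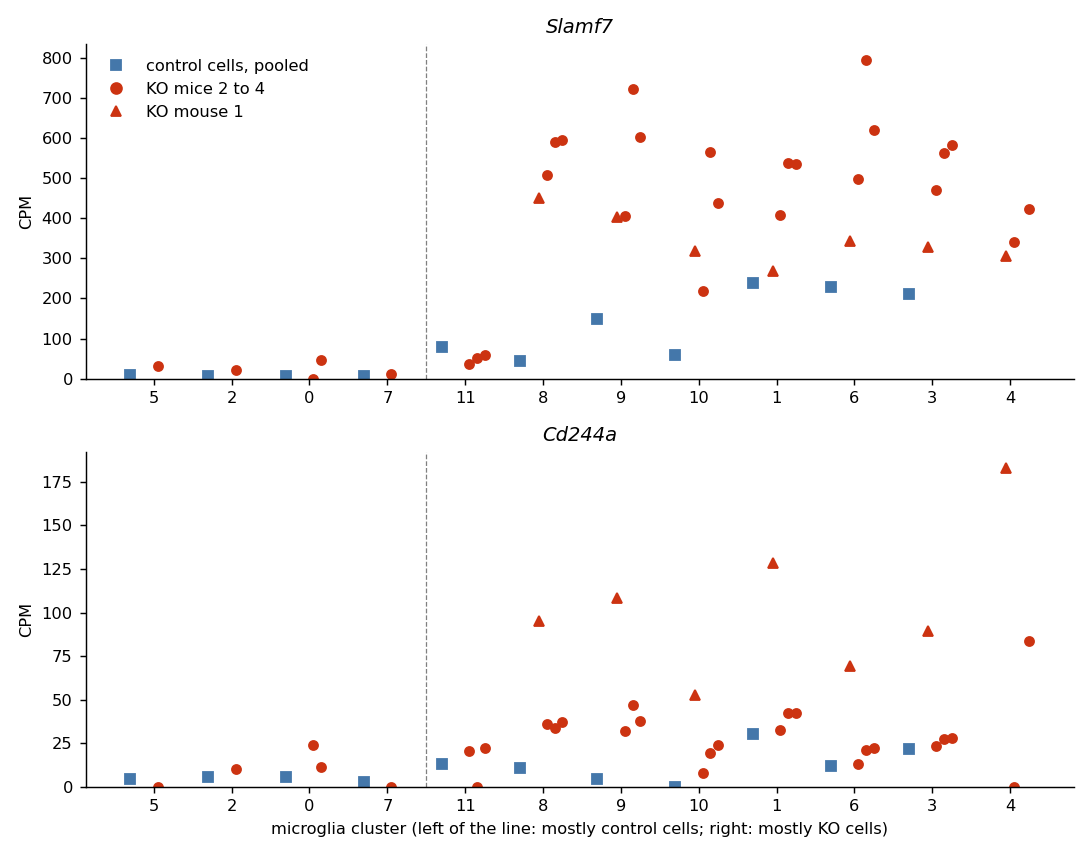
CPM of Slamf7 and Cd244a in each microglia cluster, with control cells pooled (blue squares), KO mice 2 to 4 (red circles) and KO mouse 1 (red triangles), clusters of mostly control cells left of the dashed line. Over pooled KO cells, which are not drawn, Slamf7 is at 41.4 CPM in cluster 11 and at 311 CPM or more in the other clusters right of the line. Single KO mice in those other clusters go down to 220 CPM (KO mouse 2 in cluster 10). The triangles of Cd244a lie above the circles in each cluster that has both.

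Cd48 and Slamf9 were higher in the Ms4a7-high state. This state is cluster 6, with 1414 cells, and was compared with all other microglia of the same 4 KO mice. The class given to such cells depended on the clustering. At resolution 0.8 the cluster of all cells with Ms4a7 among its leading genes was named microglia, with 6 of 14 microglia markers up. At resolution 0.4 the cluster with Ms4a7 among its leading genes (1834 cells, also led by Pf4 and Mrc1) was named CNS-associated macrophages, a class described below. Over all 11704 genes tested 14.1% differed, 6.65% as higher and 7.5% as lower, against 2 of 9 SLAM genes as higher and 0 as lower. Cd48 had 347 to 413 CPM in the state and 268 to 279 CPM outside it, without overlap and higher in 4 of 4 mice (log2 fold change 0.51, SE 0.08, adjusted p = 0.00241). Slamf9 had 219 to 320 CPM against 210 to 228 CPM, also higher in 4 of 4 mice (0.38, SE 0.11, adjusted p = 0.0349). It did not pass without KO mouse 2, 3 or 4 (adjusted p up to 0.188). Over pooled KO cells Slamf9 was higher still in cluster 10, at 315 CPM, beside 282 CPM in cluster 6 and 278 CPM in cluster 3. Cd48 was highest in cluster 6, at 378 CPM. Slamf7 was higher in 4 of 4 mice, at 342 to 795 against 315 to 550 CPM, with a difference of 0.39 (SE 0.25, adjusted p = 0.348). With the mouse as a block, which pairs the 2 sums of each mouse, the call count rose from 1656 to 2624, and Slamf7 (0.38, adjusted p = 0.000585), Cd244a (-0.99, adjusted p = 4.02e-06) and Cd84 (-0.23, adjusted p = 0.0184) also passed. Without KO mouse 1 and with no block, Cd244a (-0.84) and Cd84 (-0.24) passed as well.

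Outside the microglia the 9 genes were measured in 234 lymphocytes, with 15 to 48 cells and 50458 to 195275 UMIs per mouse, made up of 114 T cell-like, 54 NK cell-like and 66 B cell-like cells. Lymphocytes and microglia were compared as an average over both genotypes, which for some members holds differences of opposite sign. Over all 10280 genes, those that define the clusters included, 58.2% differed, 19.1% as higher and 39.1% as lower in lymphocytes. Of the 8 SLAM genes abundant enough to be tested 0 were called higher and 3 lower.

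The 3 genes lower in lymphocytes were Cd84, Slamf9 and Slamf8. Cd84 had 39.6 to 134 CPM in lymphocytes and 371 to 521 CPM in microglia of the 8 mice (log2 difference -2.53, SE 0.17, adjusted p = 5.22e-12). Slamf9 had 0 to 64.0 against 69.7 to 240 CPM (-3.11, SE 0.31, adjusted p = 6.37e-09). Slamf8 had 1 UMI in all lymphocytes, and microglia held 28.1 times its level with a counting interval of 5.05 to 1111 times (adjusted p = 0.000245). Values of these genes in lymphocytes thus lay below those of microglia in every mouse.

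Cd48, Ly9, Slamf6, Slamf7 and Cd244a overlapped between lymphocytes and microglia when the 8 mice were pooled over genotypes. Cd48 had 159 to 346 CPM in lymphocytes and 150 to 288 CPM in microglia (0.17, SE 0.15, adjusted p = 0.351). Ly9 (-0.10, SE 0.31) and Slamf6 (-0.01, SE 0.26) had differences smaller than their standard errors. Slamf7 differed by -0.87 (SE 0.52, adjusted p = 0.157) and Cd244a by 0.34 (SE 0.89, adjusted p = 0.761). For Cd244a the difference was 1.52 (adjusted p = 0.00621) without KO mouse 1, and it then passed as higher in lymphocytes. Within a genotype several of these members did not overlap, given here as ranges with no test. In control mice Slamf7 had 114 to 154 CPM in lymphocytes and 15.9 to 23.0 CPM in microglia, and in KO mice 43.9 to 164 and 317 to 567 CPM, so that lymphocytes were above microglia in controls and below them in KO mice. Cd48 had 205 to 346 against 150 to 164 CPM in control mice and 159 to 253 against 275 to 288 CPM in KO mice, with the same turn. Cd244a had 41.98 to 102 against 5.46 to 9.73 CPM in control mice and overlapped in KO mice, at 12.6 to 79.3 against 25.3 to 157 CPM. Slamf1 had 3 UMIs among 860665 in lymphocytes and was not tested.

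Within the lymphocytes levels are given per cell type as pooled values with exact Poisson intervals that cover counting error only. Cd244a was at 233 CPM (140 to 364) in NK cells of control mice and at 80.5 CPM (38.6 to 148) in those of KO mice, against 13.8 and 32.2 CPM in T cells and at most 9.74 CPM in B cells. Slamf6 was at 175 CPM (104 to 277) in control B cells and 63.0 CPM (30.2 to 116) in KO B cells, 41.4 CPM (15.2 to 90.1) in control T cells and 32.2 CPM (13.9 to 63.4) in KO T cells, so that the intervals of B and T cells overlapped in KO mice. Control NK cells had 0 Slamf6 UMIs among 81543, which allows up to 45.2 CPM by the exact interval. Cd48, in contrast, was present in all 3 types, between 164 and 324 CPM. No more than 1 NK cell sum per genotype held 10 cells, so no test was made between the lymphocyte types.

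**Figure D4:**
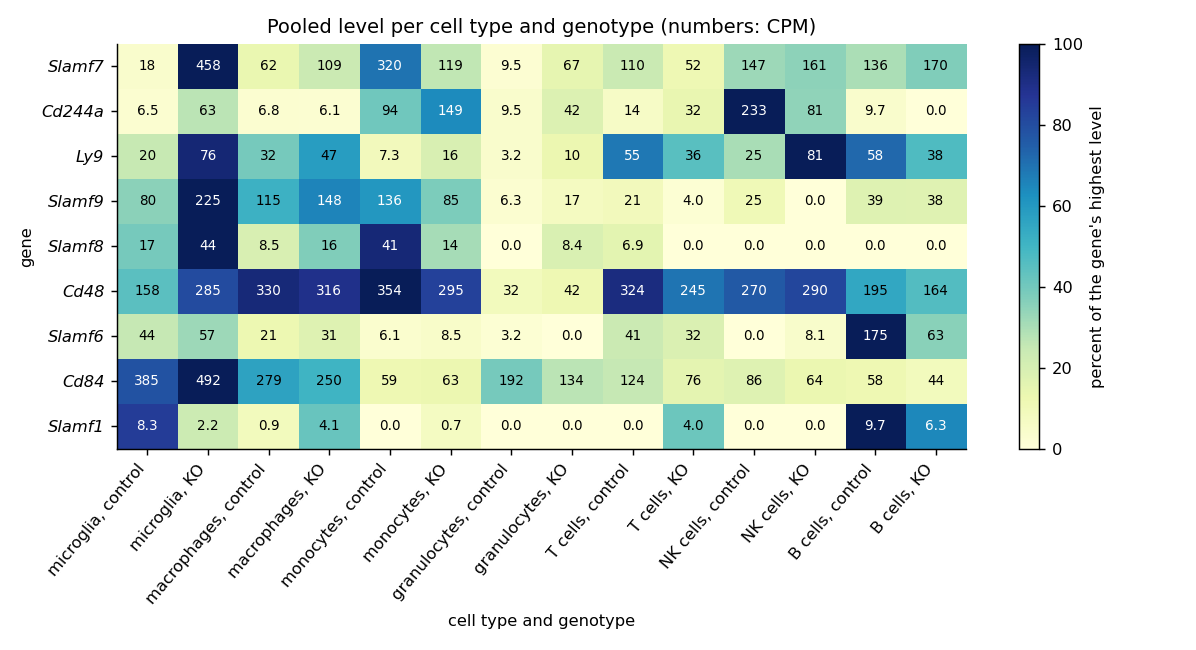
Pooled CPM (numbers in the cells) of the SLAM family genes per cell type and genotype, coloured by the percent of the highest level of the same gene. Slamf7 is darkest in KO microglia at 458 CPM, Cd244a in control NK cells at 233 CPM, and Cd48 is lowest in control granulocytes at 31.6 CPM.

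The genotype difference of microglia was not detected in lymphocytes. Slamf7 had 154, 115, 114 and 133 CPM in lymphocytes of control mice and 43.9, 79.3, 164 and 134 CPM in those of KO mice, and the groups overlapped (log2 fold change -0.14, SE 0.39, adjusted p = 0.984). Cd48 had 252, 346, 279 and 205 CPM against 226, 159, 241 and 253 CPM, also with overlap (-0.19, SE 0.22, adjusted p = 0.953). These were the 2 members past the filter, and over all 1240 genes 0% passed by edgeR and 0 by DESeq2, with 5.65% at an unadjusted p under 0.05. With the 129 cells that carried microglia markers kept among the lymphocytes, Slamf7 had a log2 fold change of 1.73 (adjusted p = 0.000928), and 140 genes passed. Without those cells Arpc4 had means of 204 CPM in control and 152 CPM in KO lymphocytes, with overlap. Its log2 fold change was -0.49 (SE 0.27, edgeR adjusted p = 0.873).

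The difference between the effects in the 2 cell classes was tested as an interaction, a comparison added after the data had been seen. The fit had no term for the mouse, so the 2 sums of each mouse entered as if independent. Its p-values do not allow for that pairing. Over 11379 genes 2.84% passed, 2.28% with a lower and 0.562% with a higher effect in lymphocytes. Slamf7 (-4.82, SE 0.59, adjusted p = 2.06e-05) and Cd48 (-1.11, SE 0.21, adjusted p = 0.00191) were among them. Ly9 (-1.98, adjusted p = 0.0539) and Slamf9 (-2.57, adjusted p = 0.0559) did not pass, although Ly9 passed under 6 of 15 alternatives and Slamf9 under 4.

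In the cluster named monocyte-like Slamf7 was lower in KO mice. The cluster was named from monocyte markers such as Plac8 and Napsa, but its leading genes (Saa3, Plac8, S100a4, Napsa, Cd209a, H2-Eb1, H2-Aa, Ear2, Plbd1 and Klf2) include ones of dendritic cells, so the name covers a mixture. This comparison was also added after the data had been seen and rests on 346 cells, 114 from control and 232 from KO mice. Single mice held 14 to 114 of these cells and 88958 to 808444 UMIs. Slamf7 had 316, 387, 280 and 287 CPM in monocytes of control mice 1 to 4 and 85.3, 195, 144 and 214 CPM in those of KO mice 1 to 4. Each KO mouse was below each control (log2 fold change -1.31, SE 0.27, adjusted p = 0.0113), where 7.1% of 3128 genes passed, 4.44% as lower and 2.65% as higher, and 5.12% had all KO mice below all controls. The adjusted p was 0.0543 without control mouse 2 and 0.0528 without KO mouse 3. The make-up of the cluster moved with the genotype. Its 9 dendritic cell markers summed to 1176 to 1784 CPM in control and 397 to 1371 CPM in KO mice, its 12 NK cell markers to 260 to 474 and 16.9 to 225 CPM, and its 10 granulocyte markers to 69.1 to 129 and 218 to 708 CPM. Its 10 B cell markers summed to 203 to 215 CPM in control and 87.8 to 146 CPM in KO mice. Its 14 microglia markers summed to 1898 to 6453 and 1641 to 10760 CPM, and its 8 monocyte markers to 1665 to 2465 and 1819 to 5227 CPM. Their part in the result was not tested.

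The other members tested in monocytes did not pass. Cd48 had 309 to 413 CPM in control and 254 to 393 CPM in KO mice (-0.42, SE 0.20, adjusted p = 0.281), Cd244a 77.0 to 110 and 78.7 to 172 CPM (0.36, SE 0.25), Slamf9 42.01 to 171 and 45.0 to 161 CPM (-0.62, SE 0.40) and Cd84 39.6 to 86.1 and 22.5 to 228 CPM (0.25, SE 0.55). The interaction of cell class and genotype between monocytes and microglia passed for 7.99% of 11446 genes, 5.39% as a lower and 2.59% as a higher effect in monocytes, and for 5 of the 9 members, all in that direction. They were Slamf7 (-6.15, SE 0.34, adjusted p = 4.15e-10), Slamf8 (-3.18, adjusted p = 0.00242), Slamf9 (-2.33, adjusted p = 0.000114), Cd48 (-1.38, adjusted p = 3.75e-05) and Cd244a (-2.92, adjusted p = 0.0466). This interaction fit also had no term for the mouse, so its p-values do not allow for the pairing of sums from the same mouse. Cd244a lost its call when any of 5 mice was left out (adjusted p up to 0.17): each of the 4 controls and KO mouse 3.

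CNS-associated macrophages, the macrophages at the borders of the brain, were measured in 409 cells and are given as levels with no test. Slamf7 had 39.3, 100.015, 54.7 and 55.3 CPM in control mice 1 to 4 and 66.4, 171, 147 and 64.8 CPM in KO mice 1 to 4, with overlapping groups. Cd48 had 317 to 339 CPM in control and 272 to 389 CPM in KO mice, and these 8 values all lay above those of control microglia (150 to 164 CPM). Slamf9 had 98.2 to 125 CPM in control mice and 9.25 to 226 CPM in KO mice, where the lowest value came from KO mouse 4.

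**Figure D5:**
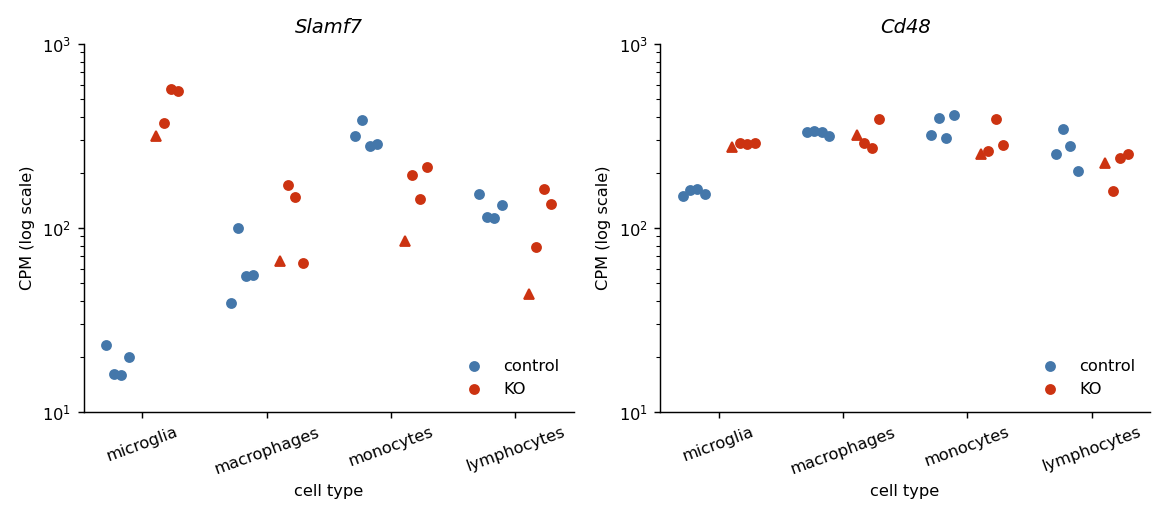
CPM of Slamf7 and Cd48 per mouse (log scale) in microglia, CNS-associated macrophages, monocytes and lymphocytes, control in blue, KO in red, KO mouse 1 as a triangle. The microglial groups of Slamf7 lie at 15.9 to 23.0 and 317 to 567 CPM, whereas in monocytes the control points (280 to 387 CPM) lie above the KO points (85.3 to 214 CPM).

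Genes with the most similar pattern were found by Pearson correlation of log2(CPM + 5) over 15 combinations of cell type and genotype, which share 1 pool and differ widely in depth, so the values are a description. For Slamf7 these were Ifi209 (r = 0.81) and B2m (0.79), both known as interferon-responsive genes, and 2410006H16Rik (0.78). For Slamf9 they were Pld4 (0.94), Grn (0.93) and Uvrag (0.93), and for Slamf8 Tspan33 (0.96), Slc12a2 (0.95) and Depdc7 (0.94). For Cd84 they were Mbd5 (0.95), Zfp839 (0.94) and Slc15a3 (0.94), for Ly9 Apobec3 (0.91), Vps45 (0.89) and Alkbh2 (0.88), and for Slamf6 Strbp (0.91), Zbtb1 (0.91) and Tial1 (0.90). For Cd48 they were mt-Nd1 (0.96), Rps29 (0.95) and Prdx1 (0.94). Cd244a had the weakest matches, Ccdc12 (0.78), Arhgap26 (0.77) and Tiam2 (0.77), and Slamf1 did not reach the 20 CPM set for this comparison.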

How the data were processed

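CD45+ brain cells of 8 mice were sorted, tagged with multiplexing oligonucleotides and run as 1 pooled 10x 3′ library. The authors aligned reads to mm10 with Cell Ranger (7.1.0 in the file headers, 6.1.2 in the submitters' processing notes), assigned cells to mice by tag and deposited raw UMI counts per gene and cell, with no normalisation. No doublet caller was run here.

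Here cells were kept from 200 detected genes upward if mitochondrial UMIs made up no more than 20%, and were clustered in Seurat 5.3.0 (10000 variable genes, 20 principal components, resolution 0.8) without the 9 SLAM family genes, Arpc4 and sex-linked genes, and named from marker lists. One subcluster of 129 lymphocyte cells with microglia markers was set aside, and 1508 cells, mostly of low depth, stayed unnamed. UMI counts were summed per mouse and cell class and tested with edgeR 4.0.16 (R 4.3.3; filterByExpr, TMM, quasi-likelihood test, Benjamini-Hochberg over all genes tested), leaving out sums under 10 cells. Shares of cells were compared by exact permutation over mice. The edgeR fits of genotype in microglia and lymphocytes, of lymphocytes against microglia and of the Ms4a7-high state were tested on simulated data. The simulated sums were drawn independently, which leaves out the pairing of sums from the same mouse. Monocyte and interaction fits were not simulated. CPM values are scaled to the total UMIs of the same cells without TMM factors, and intervals cover counting error only.

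The 8 mice are separate animals. Numbers 1 to 4 did not pair controls with KO mice (correlation of same-numbered deviations -0.07 to -0.01 over 12730 genes), whereas sums of the same mouse are paired. Named genes are the 9 members, Arpc4, the called genes of SLAM signalling and of the neighbours within 100 kb, and for each member the 3 genes of most similar pattern; genes that lead clusters, and Xist, were named after their values were seen. Members and lists were chosen with earlier results of these data known. Alternatives were RLE size factors, DESeq2 1.42.0, no filter, a replicate block, leaving out each mouse, resolution 0.4, SLAM genes kept in the clustering, subtraction of 10% of the empty-droplet profile, stricter cell filters and removal of mixed cells. The main fits that compared sums of the same mouse had no mouse term, and for the interactions no block was fitted as an alternative either.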

Additional observations from a re-analysis of the deposited data

Results flagged for a closer look

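In groups of 4 mice, 39 sets of values were searched for a mouse far from the other 3 by Dixon's criterion, where chance gives about 1 in 20. KO mouse 1, the mouse with high Xist, was such a mouse in microglia for 6 genes. It was the highest for Cd244a (157 CPM) and Slamf6 (63.6 CPM), and the lowest for Slamf8 (25.7 CPM), Cd84 (419 CPM), Cd48 (275 CPM) and Ly9 (58.2 CPM). For each of the 6 genes the call and the direction were the same without this mouse. Control mouse 2 was the lowest control for Slamf6 (38.9 CPM). In lymphocytes single mice held the few UMIs of a gene: Slamf1 in control mouse 1 (14.0 CPM) and KO mouse 3 (10.2 CPM), and Slamf8 in control mouse 2 (12.8 CPM), values that rest on 1 or 2 UMIs.

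The effect of genotype differed between cell classes by an interaction term for several members. Between lymphocytes and microglia the log2 effect differed by -4.82 for Slamf7 and by -1.11 for Cd48. Between monocytes and microglia it differed by -6.15 for Slamf7, -3.18 for Slamf8, -2.92 for Cd244a, -2.33 for Slamf9 and -1.38 for Cd48. Both comparisons share the microglia of the same 8 mice, had no term for the mouse and were added after the data had been seen.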

How the results depend on the processing

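In microglia the call and the direction of the 9 members and of Arpc4 were the same under all 17 alternatives (170 of 170 values), with the log2 fold change of Slamf7 between 4.60 and 8.80 and that of Cd244a between 2.41 and 4.15. The number of genes called there was 5861, 5518 with the replicate block and 5162 to 6368 with a mouse left out, and the replicate block changed no member's call between genotypes.

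For lymphocytes against microglia, differences near 0 turned sign: Slamf6 (0.0082 with the replicate block, -0.30 to 0.15 with a mouse left out), Ly9 (0.0414 with the replicate block, 0.0528 with DESeq2, 0.22 with the mixed cells kept, -0.36 to 0.20 with a mouse left out), Cd244a (-0.0015 to 1.52 with a mouse left out) and Slamf7 (0.31 with DESeq2). Slamf7 passed as lower in lymphocytes with no filter (-0.89) and at resolution 0.4 (-1.56). For genotype in lymphocytes 0 genes became 37 with no filter, 5 at resolution 0.4 and 140 with the mixed cells kept. Slamf7 then reached 1.73 and Cd48 0.25, and Slamf7 was between -0.57 and 0.14 with a mouse left out. In the Ms4a7-high comparison the 1656 calls were 2624 with the block and 623 (without KO mouse 4) to 2100 with a mouse left out. Ly9, at 0.03, was -0.0209 with no filter and -0.0411 to 0.068 with a mouse left out. The interaction between lymphocytes and microglia had 323 calls, 502 with no filter, 515 with DESeq2, 131 at resolution 0.4 and 179 to 317 with a mouse left out. There Ly9 turned to 8.93 and Cd48 lost its call (-1.02) at resolution 0.4. The monocyte comparison had 222 calls, 90 (without control mouse 2) to 240 with a mouse left out, and its interaction 914, 594 (without control mouse 2) to 935. The cause of these changes was not tested.

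In lymphocytes 2 of 9 members passed the filter on low counts, and no statement on the absence of a genotype difference in the others is possible at this depth.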

Other observations

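A small number of cells lay in clusters made up mostly of the other genotype, and their values are given without a test. Of the KO microglia 165 cells (1.79%) were in the 4 clusters of mostly control cells, 124 of them from KO mouse 2, 36 from KO mouse 3 and 5 from KO mouse 4. They held Slamf7 at 18.0 CPM (exact Poisson interval 8.99 to 32.2) against 464 CPM in KO cells of the other 8 clusters, Arpc4 at 198 CPM (164 to 237) against 139 CPM, and P2ry12, a marker of resting microglia, at 2124 CPM against 682 CPM. Conversely 392 control microglia (5.02%), from all 4 control mice, were in the 8 clusters of mostly KO cells. Pooled, they held Slamf7 at 161 CPM (146 to 177) against 6.05 CPM in the other control microglia, and Ly9 at 48.1 CPM (39.9 to 57.5) against 17.7 CPM. Arpc4 was at 191 CPM (174 to 209) against 235 CPM, and P2ry12 at 1457 CPM against 2809 CPM. By cluster their Slamf7 was at 211 to 239 CPM in clusters 1, 3 and 6 and at 150 CPM in cluster 9. It was at 43.7 to 78.7 CPM in clusters 8, 10 and 11, and at 433 CPM in the 3 cells of cluster 4. In cluster 8 the control mice ranged from 5.69 to 254 CPM. Clusters were built from the expression of the same cells, although not from the SLAM genes or Arpc4. In cluster 1 control cells were deeper on average, with 948344 UMIs in 87 control and 13369323 UMIs in 2182 KO cells. In cluster 8 they were not, with 548975 UMIs in 106 control and 5201354 UMIs in 835 KO cells. Whether some of these droplets held more than 1 cell was not tested.

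Among the 1508 cells of low depth that stayed unnamed, Slamf7 was at 11.7 CPM in control and 362 CPM in KO cells, and Slamf1 at 5.87 and 1.43 CPM.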
